A study of Homo sapiens with 12 samples.

Results

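The 8 genes examined here, NKX2-1, NKX2-2, HMX2, HMX3, ISL1, OTP, SIM1 and BRS3, form a list named for hypothalamic identity, and they were chosen by name from results of these same samples, so their levels are given as a description without a test. They are 8 of the 58302 genes in the count files. RNA was sequenced from 12 samples of the human ESC line H1 and of its H1-dKO derivative, in 6 groups of 2 samples. The groups were wild-type (WT) and dKO neural progenitor cells (NPCs) grown as neural spheres, at passage 2 by the study's methods, the same genotypes at passage 4, and the cells obtained after 28 days of differentiation without the progenitor growth factors (WT-D28 and dKO-D28), which started from passage 2 NPCs. H1-dKO cells lack the catalytic part of both H3K27me3 demethylases, UTX (KDM6A) and JMJD3 (KDM6B), and were picked as targeted clones. The labels do not say whether the 2 samples of a group came from separate cultures, so p-values measure only the spread between these samples, which may be technical. No label gives a batch, so a batch and a group cannot be told apart.

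The hypothalamus is patterned from the ventral forebrain by transcription factors that are switched on in restricted domains, under the influence of the secreted ligand SHH. NKX2-1 is the homeodomain factor that defines the ventral hypothalamus, and it is used as well in the ventral telencephalon, lung and thyroid. NKX2-2 marks a neighbouring ventral stripe of the neural tube, HMX2 and HMX3 are paired homeodomain factors used in hypothalamic neurons and the inner ear, and ISL1 is a LIM homeodomain factor of arcuate, striatal and motor neurons. OTP and SIM1 act together in the neurosecretory neurons of the paraventricular nucleus, and BRS3 encodes an orphan receptor of the bombesin receptor family that is found on hypothalamic neurons. At many such developmental genes the promoter is rich in CG dinucleotides and can carry H3K27me3, the mark that KDM6 enzymes remove.

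The promoters of the 5 genes that gave enough counts for a comparison are shown for their CG content, which sets BRS3 apart from the 4 transcription factor genes. Each stretch has 150 bases taken before the RefSeq start site (assembly GRCh38.p14), 5′ to 3′ on the gene's strand, with every CG in capitals. They lie at chr14:36520293-36520442 (minus strand) for NKX2-1, where the bases next to the start were left out, chr10:123135820-123135969 (plus) for HMX3, chr10:123147986-123148135 (plus) for HMX2, chr5:51383298-51383447 (plus) for ISL1 and chrX:136487797-136487946 (plus) for BRS3.
NKX2-1: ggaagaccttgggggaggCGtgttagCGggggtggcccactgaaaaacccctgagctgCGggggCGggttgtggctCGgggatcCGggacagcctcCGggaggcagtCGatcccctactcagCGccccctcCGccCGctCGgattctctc
HMX3: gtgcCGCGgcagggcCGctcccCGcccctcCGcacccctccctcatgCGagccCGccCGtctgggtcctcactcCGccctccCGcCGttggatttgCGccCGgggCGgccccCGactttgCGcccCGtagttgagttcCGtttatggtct
HMX2: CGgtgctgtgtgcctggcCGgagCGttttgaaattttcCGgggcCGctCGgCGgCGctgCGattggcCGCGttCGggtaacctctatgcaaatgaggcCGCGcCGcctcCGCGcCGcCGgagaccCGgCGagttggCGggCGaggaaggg
ISL1: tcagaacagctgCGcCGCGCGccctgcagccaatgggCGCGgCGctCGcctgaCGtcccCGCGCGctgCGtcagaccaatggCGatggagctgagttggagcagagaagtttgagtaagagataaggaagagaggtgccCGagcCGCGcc
BRS3: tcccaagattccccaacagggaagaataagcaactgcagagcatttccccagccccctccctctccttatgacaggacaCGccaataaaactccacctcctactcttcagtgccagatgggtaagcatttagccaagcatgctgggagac
These stretches held 12, 18, 23, 17 and 1 CG, in that order. Over the full windows of 300 bases, from 250 before to 50 after the first start, HMX3 had 39 CG, ISL1 36, HMX2 and NKX2-2 35 each, SIM1 25, and NKX2-1 and OTP 21 each, against a median of 14 over all 35116 RefSeq promoters of that length. A count as high as that of HMX3 was found in 8.71% of all promoters, and one as high as that of NKX2-1 in 39.5%. A second annotated start of NKX2-1 had 11 CG, under the median, and 54.7% of promoters had as many. Second starts of NKX2-2 and SIM1 had 18 and 28 CG. The BRS3 window held 2 CG, and 89.0% of all promoters had at least as many. The CG content of a window is a description of the sequence and is not a measurement of methylation or of H3K27me3.

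Levels are given in CPM, read counts scaled to the TMM library size. Total counts ran from 756942 to 1438807 in the 4 NPC samples, from 3174410 to 4220037 at passage 4 and from 4082248 to 10601172 at day 28, so 3 counts correspond to between 0.298 and 3.85 CPM, and low levels were least resolved in the early NPCs. The duplicates of dKO-D28 stood further apart than those of any other group, where the chi-square of their counts was 12.5 per degree of freedom against 1.63 to 2.90 elsewhere. KDM6A was counted at 39.1 and 38.3 CPM in dKO NPCs against 60.3 and 53.5 CPM in WT NPCs, and KDM6B at 152 and 157 CPM against 154 and 181 CPM. These whole-gene counts do not check a deletion of the catalytic part. In bulk RNA, fewer cells that express a gene and less of its RNA per cell cannot be told apart.

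Of the 8 genes, 5 passed the low-count filter, a sample mean of 20 counts or more, as did 13454 genes in all: NKX2-1, ISL1, HMX2, HMX3 and BRS3. HMX2, HMX3, BRS3 and ISL1 passed through the WT-D28 samples alone, with 339 of 341, 664 of 668, 315 of 320 and 989 of 1095 counts there. The mean over the other 10 samples was 10.6 counts for ISL1 and 0.5 or less for the other 3, so for these 4 genes a higher level in WT-D28 follows from the filter. NKX2-1 alone passed without WT-D28. OTP had 37 counts in the 12 samples together, SIM1 14 and NKX2-2 none. Just inside the filter lay BRS3 with a mean of 26.7 counts, and just outside lay OTP with a mean of 3.08 counts. The label of the list is thus borne by part of its members in these cells, and the genes are called the 8 listed genes below.

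NKX2-1 (ENSG00000136352; hg38, chromosome 14, 36516392 to 36521149, minus strand) was the most abundant of the 8 and was present in the NPCs of both genotypes. It was at 66.7 and 70.4 CPM in WT NPCs and at 87.2 and 116 CPM in dKO NPCs, so both dKO samples lay above both WT samples. At passage 4 the WT samples stood at 23.1 and 21.8 CPM, and the dKO samples at 0.461 and 0.724 CPM. At day 28 the level was 355 and 349 CPM in WT, and in dKO cells 1.91 and 0.190 CPM, which rested on 8 counts and 1 count. The 2 genotypes therefore started from levels of the same order and stood apart at both later stages, with no overlap between their samples. The dKO minus WT log2 fold change was 0.56 (SE 0.21) in NPCs, -5.17 (SE 0.43) at passage 4 and -8.47 (SE 0.28) at day 28. From NPC to day 28 NKX2-1 was 5.09-fold higher in WT and 103-fold lower in dKO cells, and from NPC to passage 4 it was 3.08-fold lower in WT and 164-fold lower in dKO cells. The order of its levels was WT-D28, dKO NPCs, WT NPCs, WT at passage 4, dKO-D28 and dKO at passage 4, and the ranges of dKO-D28 and dKO at passage 4 overlapped.

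ISL1 (ENSG00000016082; chromosome 5, 51383448 to 51394730, plus strand) had the same direction at day 28 at lower levels. It was at 8.99 and 8.06 CPM in WT NPCs and 10.3 and 6.26 CPM in dKO NPCs, with overlapping samples. At passage 4 the WT samples stood at 3.63 and 4.57 CPM, and the dKO samples at 2.77 and 2.41 CPM. At day 28 the level was 55.6 and 51.5 CPM in WT, and in dKO cells 2.15 and 0.95 CPM. WT-D28 was far above every other group, and the dKO-D28 samples lay below all others. The dKO minus WT log2 fold change was -0.03 (SE 0.42) in NPCs, -0.67 (SE 0.38) at passage 4 and -5.14 (SE 0.28) at day 28. From NPC to day 28 ISL1 was 6.33-fold higher in WT and 5.45-fold lower in dKO cells. From NPC to passage 4 it was 2.03-fold lower in WT, at the edge of the 2-fold threshold used below, and 3.16-fold lower in dKO cells.

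**Figure D1:**
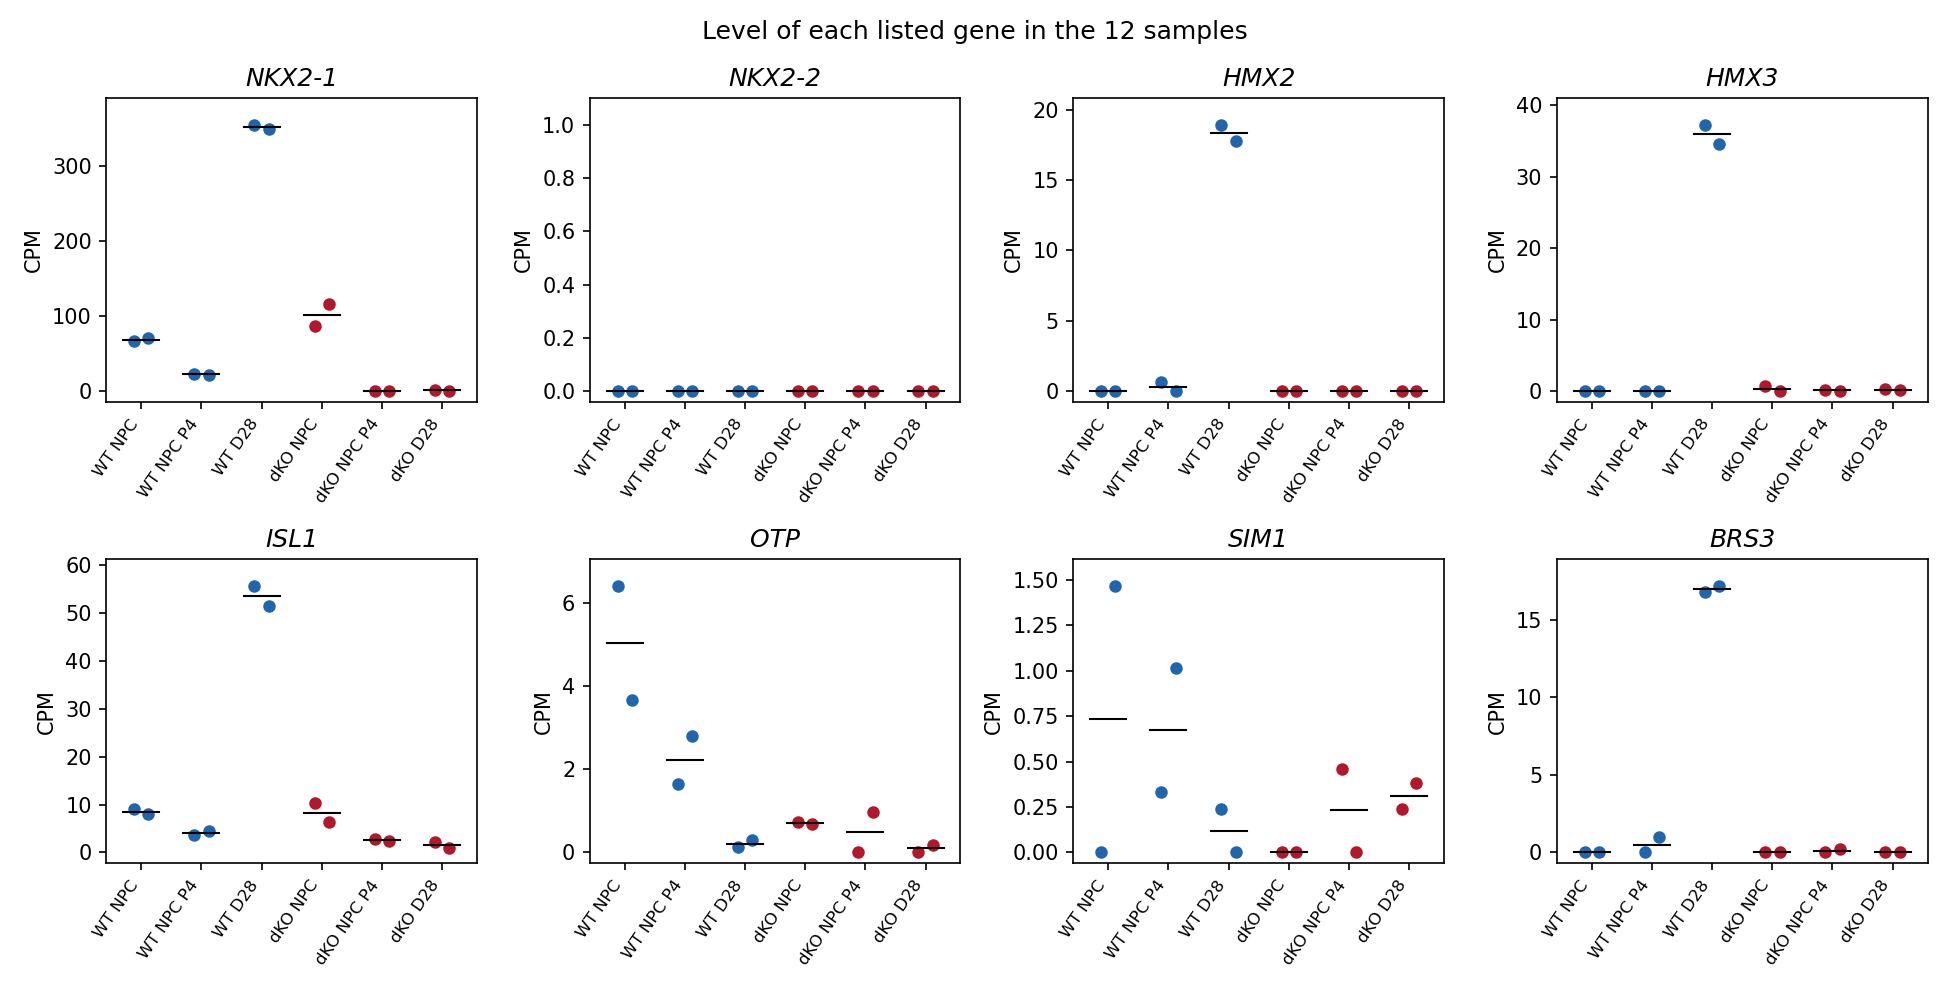
CPM (linear axis, a scale per panel) of each of the 8 listed genes in the 6 groups. Points are the 2 samples of a group, blue for WT and red for dKO, and black lines are their means. NKX2-1, HMX2, HMX3, ISL1 and BRS3 are highest in WT D28, where NKX2-1 reaches 355 CPM, while NKX2-2 is at 0 throughout and OTP reaches 6.42 CPM and SIM1 1.47 CPM.

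**Figure D2:**
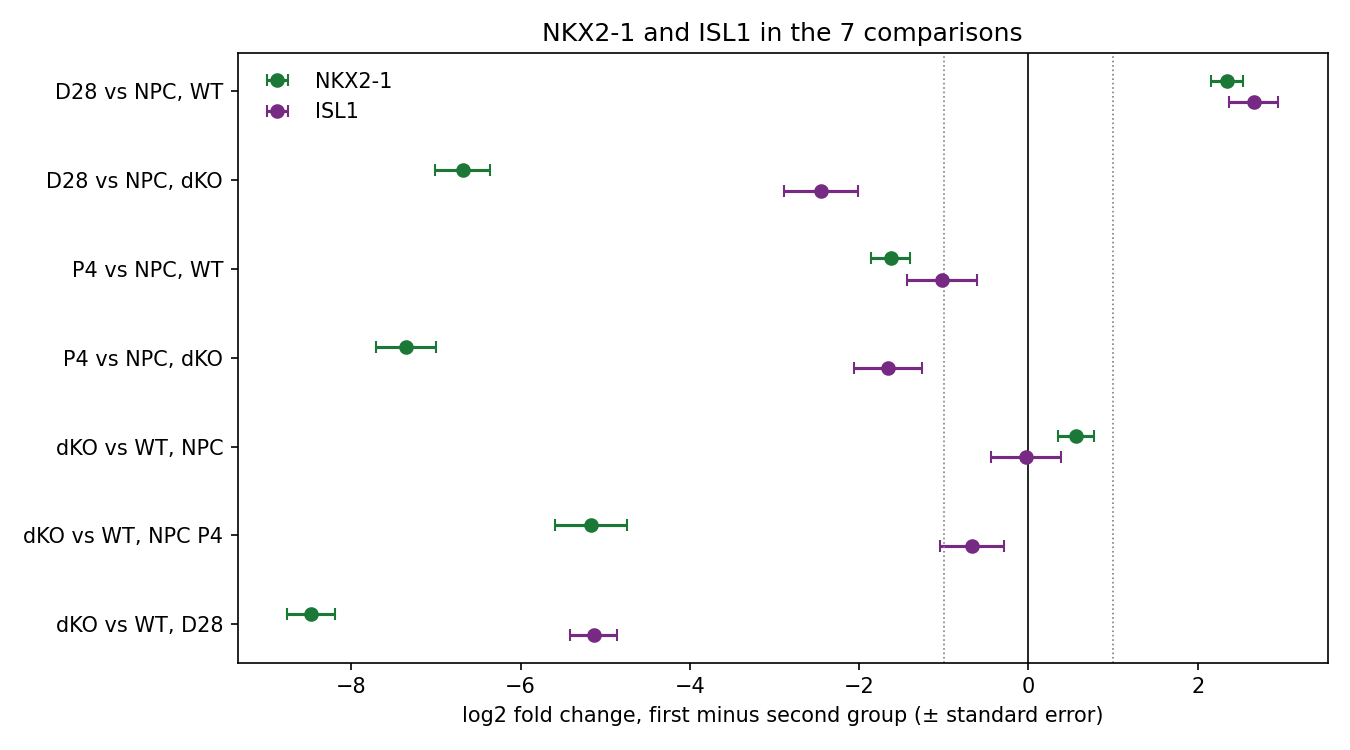
log2 fold changes of NKX2-1 and ISL1 in the 7 comparisons, as the first group minus the second, with standard errors from edgeR. Dotted lines mark a 2-fold change. Both genes are above 0 for WT from NPC to day 28 (2.35 and 2.66) and below 0 for dKO (-6.69 and -2.45), and they lie near 0 between the genotypes in NPCs.

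HMX3 and HMX2 lie side by side on chromosome 10, HMX3 (ENSG00000188620) at 123135970 to 123139423 and HMX2 (ENSG00000188816) at 123148136 to 123150672, both on the plus strand. HMX3 was at 37.3 and 34.7 CPM in WT-D28 and between 0 and 0.739 CPM in the 10 other samples, where it had 4 counts in all. HMX2 was at 18.9 and 17.8 CPM in WT-D28 and had 2 counts in the 10 other samples, both in 1 WT sample at passage 4. Neither gene was seen in WT NPCs. Against a floor of 3 counts over the 2 WT NPC samples (1.40 CPM), HMX3 was at least 25.6-fold higher and HMX2 at least 13.1-fold higher in WT-D28. Against dKO-D28, HMX3 was 170-fold higher in WT-D28 (664 against 2 counts, 95% interval 46.8 to 1403 for counting error alone) and HMX2 at least 57.7-fold higher, over a floor of 0.317 CPM.

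BRS3 (ENSG00000102239; chromosome X, 136487947 to 136493780, plus strand) was at 16.8 and 17.2 CPM in WT-D28. It had no count in either group of NPCs or in dKO-D28, 4 counts in 1 WT sample at passage 4 and 1 count in 1 dKO sample at passage 4. It was at least 12.2-fold higher in WT-D28 than in WT NPCs and at least 53.6-fold higher than in dKO-D28. The 2 WT-D28 samples thus held nearly every read of the receptor gene. The other 2 receptors of its family did not share this pattern: GRPR had 0.237 and 0.0993 CPM in WT-D28 against 8.86 and 8.35 CPM in dKO NPCs, and NMBR did not exceed 1.07 CPM in any sample.

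NKX2-2, OTP and SIM1 went against the label. NKX2-2 (ENSG00000125820; chromosome 20, 21511017 to 21514064) had 0 counts in all 12 samples, which allows up to 0.298 CPM in the deepest library and 3.85 CPM in the shallowest. OTP (ENSG00000171540; chromosome 5, 77628712 to 77638713) was highest in WT NPCs, at 6.42 and 3.67 CPM from 5 counts in each sample. It was at 0.739 and 0.696 CPM in dKO NPCs, 1 count each, so it was 6.51-fold higher in WT NPCs with a 95% counting interval of 1.39 to 61.1. In WT cells OTP was at 1.65 and 2.79 CPM at passage 4 and at 0.118 and 0.298 CPM at day 28. From NPC to day 28 it was thus lower, where the 5 genes above were higher. Its passage 4 samples also lay below its NPC samples, but on 5 and 11 counts against 5 and 5. No interval was taken for that ratio, so no direction is read from it. SIM1 (ENSG00000112246; chromosome 6, 100385009 to 100464921) did not exceed 1.47 CPM, or 4 counts, in any sample. No difference between groups was detectable for SIM1 at this depth.

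Levels between genes were compared as CPM per kilobase of the canonical transcript. In WT-D28 NKX2-1 was at 161 ± 1.83 (SD, n = 2), ISL1 at 22.4 ± 1.21, HMX3 at 12.6 ± 0.655, HMX2 at 11.4 ± 0.512 and BRS3 at 6.13 ± 0.0935. HMX3 and HMX2, neighbours in this order, stood close beside their SDs, while the other neighbours were further apart. In WT NPCs the order on the same scale was NKX2-1 at 31.3 ± 1.17, ISL1 at 3.56 ± 0.272 and OTP at 1.87 ± 0.723. In dKO-D28 no listed gene exceeded 0.647, the mean of ISL1.

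A gene was called where the quasi-likelihood fit of edgeR gave p below 0.05 before adjustment together with more than a 2-fold difference, which are the thresholds of the study's methods. In WT from NPC to day 28, 5 of the 5 listed genes that passed the filter were called higher, where 12.9% of the 13454 genes were called higher and 11.5% lower. Between dKO-D28 and WT-D28 these 5 were called lower, where 11.7% of genes were called lower and 12.4% higher. In both comparisons the filter fixed the direction of 4 of the 5, so nothing is read from these counts beside the background. In dKO from NPC to day 28, 2 were called lower (NKX2-1 and ISL1) and none higher, against 3.14% and 4.01% of genes. From NPC to passage 4, NKX2-1 and ISL1 were called lower in WT (background 9.49% lower, 10.3% higher) and in dKO cells (5.22% lower, 4.61% higher). The call of ISL1 in WT was lost without WT NPC sample 1, WT NPC sample 2 or WT passage 4 sample 1, which left 1 listed gene called. Between dKO and WT at passage 4, NKX2-1 alone was called lower, against 11.2% of genes lower and 11.1% higher. In NPCs none of the 5 was called between the genotypes, where 1.83% of genes were called lower and 2.59% higher. HMX2, HMX3 and BRS3 had only 2, 4 and 5 counts outside WT-D28. The comparisons without WT-D28 therefore bear in effect on NKX2-1 and ISL1, and a missing call of the others there does not show an unchanged level. The counts of members are a description, since the genes were chosen on these contrasts, and the comparisons share samples: WT-D28 serves in 2 of them and WT NPCs in 3.

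The genes beside the listed genes were read in the same fit. NKX2-1-AS1, SFTA3 and ISL1-DT passed the filter through WT-D28 alone, with 779 of 866, 471 of 550 and 258 of 298 counts there, so their differences from WT-D28 are given without a test. On chromosome 14, the antisense gene NKX2-1-AS1 (36519278 to 36523016, plus strand) and the lncRNA annotated as SFTA3 (ENSG00000229415, 36473288 to 36513829, minus strand) followed NKX2-1. NKX2-1-AS1 was at 44.05 and 40.4 CPM in WT-D28 and had no counts in dKO-D28, so WT-D28 was at least 133-fold higher against the floor of 3 counts over the group. SFTA3 was at 26.2 and 24.8 CPM in WT-D28 and at 0 and 0.190 CPM in dKO-D28, and so was 241-fold higher in WT-D28 (471 against 1 count, 95% counting interval 43.0 to 9521). Both were called higher in dKO than in WT NPCs, by 1.33 (NKX2-1-AS1) and 1.11 (SFTA3) on the log2 scale, with Benjamini-Hochberg adjusted p = 0.183 and 0.252 from edgeR. In dKO NPCs SFTA3 was still at 9.60 and 18.1 CPM and NKX2-1-AS1 at 15.5 and 16.7 CPM, and both were at 0.231 CPM or less in dKO cells at passage 4. NKX2-1-AS1 overlaps NKX2-1 and the kit does not mark the strand, so reads of the 2 genes cannot be told apart where they overlap. A second, protein-coding gene entry named SFTA3 shares exons with NKX2-1 and had 0 counts in every sample. NKX2-8, the next gene on the other side and a paralog of NKX2-1, reached 2.01 and 2.48 CPM in WT-D28 and was at 0 in 9 of the other 10 samples.

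Beside HMX2, on the same strand and 3730 bases beyond its end, lies BUB3 (chromosome 10, 123154402 to 123170467), which encodes a subunit of the mitotic spindle checkpoint. BUB3 was at 462 and 474 CPM in WT-D28 and between 108 and 128 CPM in the 10 other samples. It rose in WT from NPC to day 28 by 2.03 on the log2 scale (SE 0.11, adjusted p = 2.13e-09 by the edgeR test) and was lower in dKO-D28 than in WT-D28, with a log2 fold change of -2.02 (SE 0.10, adjusted p = 2.47e-10 by the same edgeR test). Neither dKO from NPC to day 28 (-0.02, SE 0.11) nor the NPC genotypes (0.03, SE 0.13) gave a call for BUB3. On the other side, ACADSB, 77680 bases from HMX3, was not called in any of the 7 comparisons and lay between 26.4 and 47.5 CPM in the 12 samples. The divergent lncRNA ISL1-DT, 116 bases from ISL1, was at 13.7 and 14.1 CPM in WT-D28 and at 1.43 and 0.380 CPM in dKO-D28 (log2 fold change -3.98, SE 0.45). Beside BRS3, ADGRG4 on the left was seen in WT-D28 alone, at 3.32 and 2.18 CPM, while HTATSF1, 3299 bases to the right, was at 208 and 221 CPM there and 147 to 191 CPM elsewhere, and was not called in any of the 7 comparisons. The flanks of OTP (WDR41 and TBCA) and of SIM1 (ASCC3) were likewise not called in any of them.

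The paralogs of the listed genes were few and low. NKX2-3, NKX2-4, NKX2-5 and NKX2-6 did not exceed 1.39 CPM in any sample. HMX1 was at 12.6 and 12.1 CPM in WT-D28 and at 14.3 and 19.95 CPM in dKO-D28, without the WT-D28 pattern of HMX2 and HMX3. ISL2 was at 0 in WT-D28 and at 1.19 and 4.94 CPM in dKO-D28. SIM2 was at 10.3 and 9.63 CPM in WT-D28 and 2.86 and 2.85 CPM in dKO-D28.

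Across the 12 samples, which share the WT-D28 duplicates as their highest points, the genes most like each listed gene by Pearson's r of log2 CPM were given as a description. For NKX2-1 they were SFTA3 (r = 0.975), the retrotransposon-derived RTL5 (0.972) and DPYD (0.956), a pyrimidine catabolic enzyme. For HMX2 they were BUB3 (0.986), the ubiquitin protease USP11 (0.978) and C1QL2 (0.976), a secreted C1q-like protein. For HMX3 they included C1QL2 (0.979) and BUB3 (0.971), and for BRS3 they were C1QL2 (0.982), BUB3 (0.978) and the imprinted gene PEG10 (0.976). For ISL1 they were TOX2 (0.973), NRXN3 (0.968), a presynaptic adhesion molecule, and EPB41L1 (0.967). C1QL2 was at 16.3 and 16.7 CPM in WT-D28 and had at most 0.254 CPM elsewhere. PEG10 was at 4339 and 4342 CPM in WT-D28 against 706 to 1310 CPM elsewhere. Among the listed genes themselves, HMX2 with HMX3 had the highest r, 0.964, and NKX2-1 with HMX3 the lowest, 0.553.

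Other hypothalamic transcription factors moved in both directions. Of 26 listed, 13 passed the filter. Between dKO-D28 and WT-D28, 6 were called lower and 2 higher, where 11.7% of all genes were called lower and 12.4% higher. Their median log2 fold change was -0.99 beside 0.00 over all genes. The shares given above for the other comparisons apply to this list and to those below. LHX8 and LHX6, LIM homeodomain factors of ventral forebrain neurons, were lower in dKO-D28. LHX8 was at 111 and 118 CPM in WT-D28 and at 0.477 and 0.380 CPM in dKO-D28 (log2 fold change -7.97, SE 0.33), and LHX6 was at 40.3 and 40.02 CPM against 0.477 and 0. SIX6, a factor of the eye field and the hypothalamic and pituitary primordium, was at 19.3 and 28.7 CPM in dKO-D28 and at 0 in both WT-D28 samples, at least 151-fold higher. LHX6, LHX8 and SIM2 passed the filter through WT-D28 alone and SIX6 through dKO-D28 alone, so these differences follow in part from the filter. Without the 3 genes that needed WT-D28 the count was 3 lower and 2 higher. These 2 were SIX6, which is under the same limit through dKO-D28, and FEZF1, which did not need dKO-D28 to pass. FEZF1, which acts in the early forebrain, was higher in dKO-D28 by 3.27 on the log2 scale (SE 0.17, adjusted p = 3.16e-10 by the edgeR test). In WT from NPC to day 28, 3 of the 13 were called higher (LHX6, LHX8 and LHX9, of which LHX9 alone passed the filter without WT-D28) and 3 lower (SIX6, FEZF1 and POU3F2), with a median of 0.39. Between dKO and WT at passage 4, 5 were called higher and 5 lower, with a median of -0.26. Among them, POU3F2 had a log2 fold change of -3.28 and SIX6 one of 3.27. RAX, a defining factor of the hypothalamic and eye primordium, was at 0.592 and 0 CPM in WT-D28 and at 8.99 and 8.06 CPM in WT NPCs, and 10 of the 26 genes stayed under 5 CPM in every sample.

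Hypothalamic neuropeptides and their receptors were mostly near 0. Of 33 listed, 19 stayed under 5 CPM in every sample and 7 passed the filter. AGRP, OXT, AVP and CARTPT, which define classes of hypothalamic neurons, did not exceed 0.461 CPM in any sample, and POMC was at 0.355 and 0.695 CPM in WT-D28. Between dKO-D28 and WT-D28, 3 of the 7 were called lower and 3 higher, against 11.7% and 12.4% of all genes. The median was 0.53. SST, the gene of somatostatin, was at 32.1 and 33.2 CPM in WT-D28 and at 0.954 and 0 CPM in dKO-D28 (log2 fold change -6.16, SE 0.57). TAC3, the gene of neurokinin B, was at 17.9 and 16.4 CPM against 0.238 and 0.570 CPM. SST, TAC3 and GNRH1, the 3 called lower, passed the filter through WT-D28 alone, with 605 of 628, 316 of 371 and 151 of 297 counts there, so a higher level in WT-D28 follows from the filter and no test is read from it. CRH, the gene of corticotropin-releasing hormone, was the reverse, at 8.59 and 10.1 CPM in dKO-D28 and at 0 and 0.298 CPM in WT-D28. CRH was highest in dKO cells at passage 4, at 178 and 167 CPM against 16.8 and 16.5 CPM in WT (log2 fold change 3.38, SE 0.24, adjusted p = 3.39e-08 by the edgeR test). At passage 4, CRH and NMU were called higher and TAC3 lower in dKO cells, with a median of 0.06 over the 7. In WT from NPC to day 28, TAC3, SST and GNRH1 were called higher, with the same limit, and TRH, CRH and NMU lower, with a median of 0.08.

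The Hedgehog list, which holds the ligand, its receptors and the factors of the ventral neural tube, was divided by role. Of 18 genes 12 passed the filter. Between dKO-D28 and WT-D28, 5 were called lower and 6 higher, against 11.7% and 12.4% of all genes. The median was 0.76. The ligand SHH was at 61.6 and 62.7 CPM in WT-D28 and at 0.477 and 0.190 CPM in dKO-D28 (log2 fold change -7.47, SE 0.36). PTCH1 and HHIP, which bind the ligand and are induced by the pathway, were lower in dKO-D28 too, with log2 fold changes of -2.13 and -2.97. Of the 5 called lower, 4 passed the filter through WT-D28 alone, with SHH (1151 of 1213 counts) and HHIP (218 of 265) among them, so only 1, PTCH1, was free of that limit. The co-receptors GAS1, CDON and BOC were higher, by 6.93, 4.14 and 3.97, and the transcription factors GLI2 and GLI3 by 3.43 and 3.36. SUFU was not called (0.21, SE 0.17). In WT from NPC to day 28, 3 were called higher, with SHH and HHIP among them and all 3 under the same limit, and 5 lower, with a median of -0.43. At passage 4, 2 were called lower in dKO cells, with SHH (-4.05) among them, and GAS1, BOC and SMO were called higher, with a median of 0.13. In NPCs, none of the 12 was called between the genotypes.

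**Figure D3:**
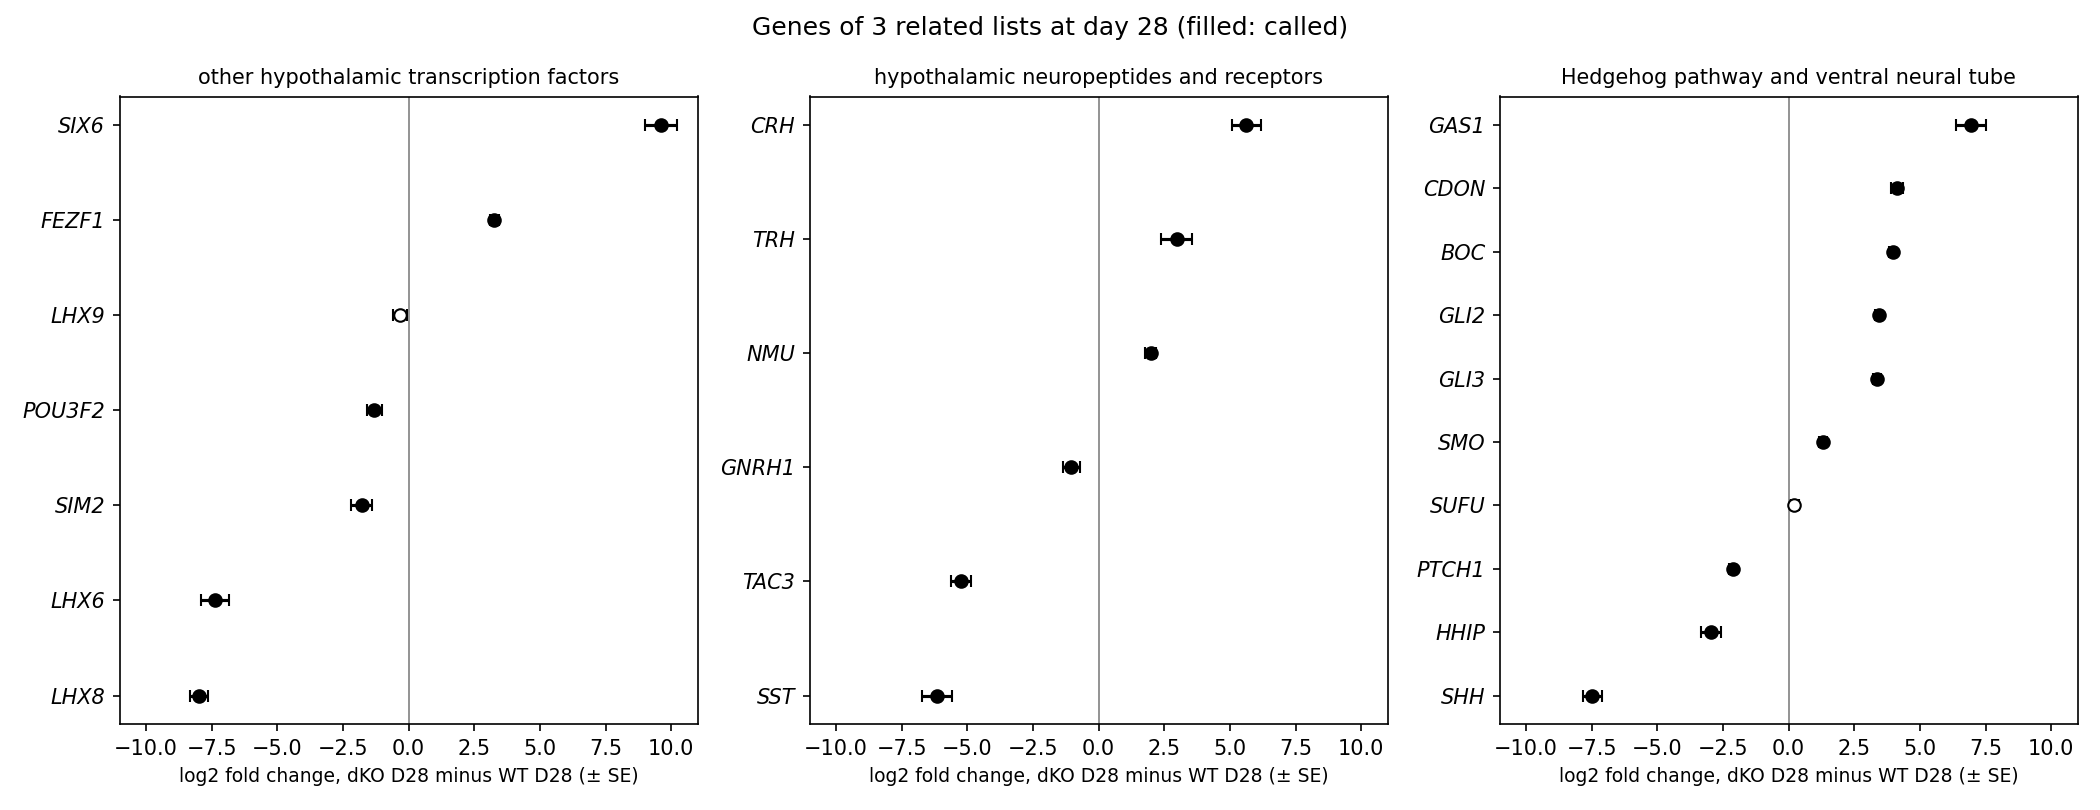
log2 fold change at day 28, dKO minus WT, with standard errors, of the tested genes of 3 related lists that the text names. Filled points were called. LHX8, SST and SHH are the lowest of their lists (-7.97, -6.16 and -7.47), and SIX6, CRH and GAS1 the highest.

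Markers of other cells were read beside the listed genes. Telencephalic factors were present: the ventral factor DLX1 was at 364 and 338 CPM in WT-D28 and at 10.5 and 0.95 CPM in dKO-D28. The dorsal factors PAX6, EMX2 and TBR1 were lower in WT-D28 than in dKO-D28, by 4.53, 5.31 and 6.25 on the log2 scale. In WT at passage 4, where NKX2-1 was 3.08-fold lower than in WT NPCs, the cortical factors EOMES (397 and 408 CPM) and NEUROD6 (360 and 375 CPM) were at their highest. The 8 neuron markers summed to 3524 and 3526 CPM in WT-D28 and to 1080 and 611 CPM in dKO-D28. Of these, 7 of the 7 tested were called lower in dKO-D28, where 11.7% of all genes were called lower and 12.4% higher. The neuron markers were as high in WT at passage 4, at 4207 and 4778 CPM, where the 8 listed genes together made 29.4 and 31.2 CPM. The sum of the listed genes was 484 and 470 CPM in WT-D28 and 4.53 and 1.90 CPM in dKO-D28. The 5 astrocyte markers summed to 297 and 302 CPM in WT-D28 and to 24.8 and 23.2 CPM in dKO-D28, with 4 of the 4 tested called lower, 2 of which passed the filter through WT-D28 alone. Most of the WT-D28 sum was SLC1A3, at 261 and 264 CPM, while GFAP was at 14.7 and 18.0 CPM. The astrocyte sum was highest in WT at passage 4, at 1813 and 1969 CPM. The 5 mesenchymal markers summed to 101 and 108 CPM in WT-D28 and to 361 and 276 CPM in dKO-D28, with 3 called higher and 1 lower. The 8 neural progenitor markers summed to 4408 and 4462 CPM in WT-D28 and to 4151 and 3331 CPM in dKO-D28. Most of each sum was VIM, at 2527 and 2550 CPM in WT-D28 and 2637 and 1823 CPM in dKO-D28. Of the 7 tested, 2 were called higher in dKO-D28, PAX6 and PROM1, and 1 lower, FABP7. PROM1 was at 2.84 and 2.98 CPM in WT-D28 and at 74.2 and 108 CPM in dKO-D28. FABP7 was at 408 and 422 CPM against 175 and 43.1 CPM. The part of these markers in the levels of the listed genes was not tested.

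Markers of other cells that use the same factors were mostly at or near 0. Of 26 markers of lung, thyroid, pancreas, motor neuron, heart, kidney, inner ear and oligodendrocyte, 19 stayed under 5 CPM in every sample. SFTPB and SFTPC, the lung surfactant genes, did not exceed 0.254 CPM, and INS, CHAT, TBX5 and OC90 did not exceed 0.733 CPM. Of these genes 2 passed the filter, with SFTA3, described above, among them. POU5F1 and NANOG, the markers of pluripotent cells, had 0 counts in all samples.

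The difference between the genotypes in the change from NPC to day 28 was taken from that fit as a contrast of its own. It was called for 21 of the 32 tested genes of the 3 lists, where 12% of all genes were called higher and 11.1% lower, and 8 of the 21 had passed the filter through WT-D28 alone. For the change from NPC to passage 4 it was called for 12 of them, where 9.72% of all genes were called higher and 9.57% lower. As a description, the difference (dKO minus WT) for NKX2-1 was -9.03 (SE 0.38) to day 28 and -5.73 (SE 0.49) to passage 4. For ISL1 it was -5.11 (SE 0.54) and -0.64 (SE 0.56). The ISL1 difference to day 28 is under the limit of the filter, which ISL1 passed through WT-D28 alone.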

How the data were processed

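RNA was extracted with TRIzol, and libraries were made with the Illumina TruSeq RNA kit. Per the submitters' processing notes and the study's methods, reads were mapped to hg38 with HISAT2 2.0.4, sorted with SAMtools 1.3.1 and counted with HTSeq 0.6.0. The authors deposited raw read counts per Ensembl gene for 58302 genes, without normalization. The annotation release and the strand setting of the counting are not given in the sources used here. Symbols, positions and transcript lengths came from GENCODE release 44 (98.7% of genes matched, 99.8% of counts), and promoters from RefSeq.

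Groups and replicate numbers came from the labels. Counts were TMM-normalized and compared in edgeR 4.0.16 (R 4.3.3) by its quasi-likelihood test with robust dispersions, in 1 fit of 6 group means to the 13454 genes whose mean count was 20 or more, with Benjamini-Hochberg adjustment within each comparison. A standard error is the log2 fold change divided by the square root of F. Intervals of count ratios are exact binomial ones at 95%. Bounds against a group without counts use 3 counts over the group, and cover counting error only, because the reads carry no molecular identifiers and are not independent molecules. The fit was tested on simulated counts. A single comparison of 2 against 2 samples cannot go below p = 0.333 in an exact two-sided permutation test. The members and lists were chosen with earlier results of these data known. Named besides the members were KDM6A, KDM6B, per list and comparison up to 4 called genes with the greatest change, nearest and namesake genes, paralogs, and the 3 genes most like each tested member. Further list genes, those named for a low or uncalled level and the marker genes were picked after their values were seen. The alternatives were DESeq2 1.42.0, adjusted calls, a fit of the compared samples only, other count filters, offsets for GC content and gene length, a replicate block, CPM on other library sizes, and leaving out each sample. Genes that passed the filter through WT-D28 alone were found from the mean over the other 10 samples, a step added after the data were seen. Some genes of the lists are not reported here.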

Additional observations from a re-analysis of the deposited data

Results flagged for a closer look

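NKX2-1 was higher in both WT-D28 samples than in both WT NPC samples, and lower in both dKO-D28 samples than in both dKO NPC samples, with a difference of log2 fold changes (dKO minus WT) of -9.03. ISL1 showed the same split, with a difference of -5.11. Unlike NKX2-1, ISL1 passed the count filter through WT-D28 alone, so its higher level there follows from the filter. For these 2 genes the difference was not tested, because they were chosen for this pattern.

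Genes among the 4 of each list with the greatest difference are given here. Among the other hypothalamic transcription factors, the change from NPC to day 28 differed between the genotypes (edgeR contrast, adjusted p below 0.05) by 10.55 for SIX6, -8.58 for LHX8 and 2.79 for FEZF1 on the log2 scale, dKO minus WT. For the change from NPC to passage 4 the difference was 4.21 for SIX6.

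Among the neuropeptides, the difference to day 28 was -9.83 for TAC3, 5.41 for CRH, 4.52 for TRH and 1.54 for NMU, and the difference to passage 4 was -7.40 for TAC3. TAC3 had no counts in WT NPCs and SIX6 none in WT-D28, so the sizes for these 2 genes depend on the prior count. LHX8, TAC3 and SHH passed the count filter through WT-D28 alone and SIX6 through dKO-D28 alone, which fixed part of these differences. Among the Hedgehog genes, the difference to day 28 was 7.33 for GAS1, -7.09 for SHH and 4.25 for BOC, and the difference to passage 4 was -3.67 for SHH. The 2 dKO-D28 samples of GAS1 stood at 135 and 356 CPM.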

How the results depend on the processing

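Leaving out each sample in turn left 5 listed genes called for dKO against WT at day 28 and WT from NPC to day 28. In these 2 comparisons the filter fixed the direction of 4 of the 5, so nothing is read from the constant count. The same step kept the number at 2 for dKO from NPC to day 28 and at 2 for dKO from NPC to passage 4. It gave 1 to 2 for dKO against WT at passage 4, where 2 genes were called without either WT sample, and 1 to 2 for WT from NPC to passage 4, where ISL1 was lost without WT NPC sample 1, WT NPC sample 2 or WT passage 4 sample 1. ISL1 was lost there with DESeq2 (1 listed gene called), with adjusted calls (1) and with any gene that had 1 count (1). With DESeq2, HMX2 was not called at day 28, so 4 listed genes were. The sign of the ISL1 difference between genotypes in NPCs, near 0, was reversed with offsets for GC content and gene length (0.010), and leaving out 1 sample gave -0.43 to 0.30, with 0.032 without WT NPC sample 1 and 0.30 without dKO NPC sample 2.

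The filter moved the counts most. A minimum of 10 counts in each of the 12 samples leaves out every listed gene (0 called in each comparison), and gave, in the order passage 4, day 28 and WT from NPC to day 28, 5, 4 and 2 called for the transcription factors, 1, 2 and 2 for the neuropeptides and 3, 7 and 5 for the Hedgehog list, and 11 and 6 for the differences of changes to day 28 and passage 4. With no filter beyond a single count, 1 listed gene was called in NPCs and 2 at passage 4, and the counts were 13 at day 28 and 10 in WT from NPC to day 28 for the transcription factors, 9, 15 and 13 for the neuropeptides, and 34 and 19 for the differences. The causes of other changes were not tested. Deviations of same-numbered samples correlated by only 0.018 on average over 15 pairs of groups (-0.055 to 0.18) and show no pairing. With the replicate block the listed genes called at day 28 were again 5, of which the filter fixed the direction of 4. The difference to day 28 was then called for 22 list genes. Other library sizes moved no group mean of a listed gene by more than 6.65%. The low totals of the early NPCs limit what can be said of absent genes there to about 1.40 CPM over the 2 WT samples.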
